A study of Homo sapiens with 2 samples.

Results

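TSC22D1, TSC22D2, TSC22D3 and TSC22D4 make up the TSC22D family, and PER1, KLF9, SGK1, ERRFI1 and ZBTB16 are genes that glucocorticoids induce in many tissues. These 9 genes were chosen by symbol among 25268 gene symbols, with their values in these libraries already known, so what follows is a description of them. They were measured in C4-2B MDVR, an established line of castration-resistant prostate cancer, derived from LNCaP, that resists the antiandrogen enzalutamide. The Indocin group was 1 RNA-seq library from cells given 20 µM Indocin for 3 days, and the DMSO group was 1 library from cells given the vehicle DMSO for 3 days. Both cultures were kept in serum-containing medium with 20 µM enzalutamide, and the labels name no added glucocorticoid. Indocin is indomethacin, a cyclooxygenase inhibitor. Each group had 1 library of 1 cell line, and differences are therefore given without a replicate check, an error or a p-value.

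Glucocorticoids act through the glucocorticoid receptor, NR3C1, which binds DNA and switches on a set of genes shared by many cell types. TSC22D3, also called GILZ, is among the best known of them and restrains inflammatory transcription factors. The TSC22D proteins share a conserved TSC box next to a leucine zipper, through which they pair with one another. In prostate cancer cells some glucocorticoid-induced genes, FKBP5 and ZBTB16 among them, also respond to androgen.

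The coding sequences of the 4 TSC22D genes are shown where they are most alike, because reads can be misassigned between paralogs that share long exact runs. The stretch is the in-frame window of 90 coding bases of TSC22D3 with the best match in all 3 paralogs, read 5′ to 3′ on the coding strand from GENCODE 29 transcripts. Capitals mark the 58 bases that all 4 genes share.
TSC22D1: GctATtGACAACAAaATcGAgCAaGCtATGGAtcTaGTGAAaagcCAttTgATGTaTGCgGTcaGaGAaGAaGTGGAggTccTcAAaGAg
TSC22D2: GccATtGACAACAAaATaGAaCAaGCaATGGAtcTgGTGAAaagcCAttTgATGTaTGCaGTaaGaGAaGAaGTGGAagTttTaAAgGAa
TSC22D3: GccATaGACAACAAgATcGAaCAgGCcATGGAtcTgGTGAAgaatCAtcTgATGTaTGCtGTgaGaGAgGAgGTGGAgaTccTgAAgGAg
TSC22D4: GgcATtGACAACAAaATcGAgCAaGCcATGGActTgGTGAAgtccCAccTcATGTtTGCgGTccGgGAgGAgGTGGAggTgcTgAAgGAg
In GRCh38 the TSC22D3 stretch lies on the minus strand within chrX:107714690-107715928, and that of TSC22D1 on the minus strand within chr13:44434824-44436073. The stretch of TSC22D2 lies on the plus strand within chr3:150457098-150458435, and that of TSC22D4 on the minus strand within chr7:100467109-100467581. Each stretch is exonic coding sequence and spans an intron. Over it TSC22D3 was identical to TSC22D1 at 80.0% of bases and to TSC22D2 and TSC22D4 at 78.9% each, while TSC22D1 and TSC22D2 were the closest pair at 85.6%. Across all annotated transcripts, UTRs included, the longest exact run that TSC22D3 shared with a paralog was 17 bases, with TSC22D4. The longest run between any 2 of the family was 23 bases, for TSC22D1 with TSC22D2 and with TSC22D4.

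TSC22D3 was the member whose level differed most between the libraries. It stood at 62.2 FPKM in the Indocin library and 18.9 FPKM in the DMSO library, where FPKM counts fragments scaled by transcript length and library size. That is 3.29-fold in FPKM, and the log2 ratio was 1.67. Here and below the log2 ratio is log2((Indocin FPKM + 1)/(DMSO FPKM + 1)), so a positive value means higher in the Indocin library. Tested genes were the 11964 whose mean over the libraries reached 1 FPKM, and TSC22D3 had rank 27 of them from the highest ratio. In bulk RNA, more RNA per cell and more cells with the RNA cannot be told apart.

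TSC22D1, a leucine zipper regulator first found as a gene induced by transforming growth factor beta, stood at 45.5 FPKM in the Indocin library and 51.1 FPKM in the DMSO library (log2 ratio -0.17). TSC22D2, a less studied relative, stood at 9.33 FPKM in the Indocin library and 10.6 FPKM in the DMSO library (-0.17). TSC22D4, a regulator of lipid and insulin metabolism in mouse liver, stood at 34.6 FPKM in the Indocin library and 37.4 FPKM in the DMSO library (-0.11). These 3 paralogs had slightly lower values in the Indocin library, with differences of -12.4% to -7.65% in FPKM, opposite in sign to TSC22D3. With a common FPKM sum the log2 ratios were closer to 0, at -0.09 for TSC22D1, -0.10 for TSC22D2 and -0.03 for TSC22D4. They were below 0 with every pseudocount and scaling tried, but as deposited lay inside the range from -0.45 to 0.55 that held the middle 95% of tested genes.

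The make-up of the family's RNA therefore differed between the libraries. Summed over the 4 genes, FPKM came to 151.5 in the Indocin library and 118.1 in the DMSO library. TSC22D3 held 41.0% of that sum in the Indocin library and 16.0% in the DMSO library, while TSC22D1 held 30.0% in the Indocin library and 43.3% in the DMSO library. The sum of the other 3 members was lower in the Indocin library, at 89.4 FPKM, against 99.2 FPKM in the DMSO library. TSC22D3 was thus the highest of the 4 with Indocin and the third of the 4 with DMSO.

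**Figure D1:**
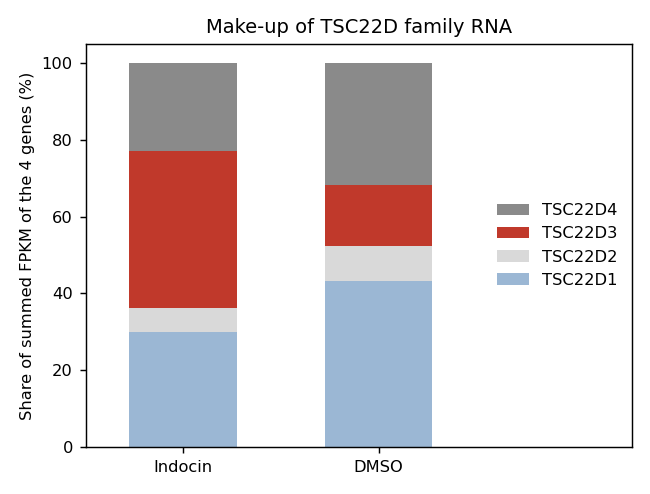
Stacked bars give the share (%) of the summed FPKM of TSC22D1, TSC22D2, TSC22D3 and TSC22D4 held by each gene, in the Indocin library (left) and the DMSO library (right), 1 library per bar. The TSC22D3 segment is 41.0% of the Indocin bar and 16.0% of the DMSO bar.

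Of the 5 other glucocorticoid-induced members, none was past 1.5-fold on the log2 ratio scale (0.58). ERRFI1, also called MIG6, is a feedback inhibitor of the EGF receptor family and was the nearest to it. It stood at 59.7 FPKM in the Indocin library and 42.6 FPKM in the DMSO library (log2 ratio 0.48). PER1, a repressor of the circadian clock, lay on the other side, at 18.5 FPKM in the Indocin library and 24.0 FPKM in the DMSO library (-0.36). ERRFI1 had rank 385 from the highest ratio and PER1 rank 660 from the lowest.

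Of the remaining 3, SGK1 and KLF9 were nearly level and ZBTB16 had a slightly higher value in the Indocin library. SGK1, a kinase that promotes sodium uptake and cell survival, stood at 38.5 FPKM in the Indocin library and 38.1 FPKM in the DMSO library (log2 ratio 0.01). KLF9, a zinc finger transcription factor, stood at 15.5 FPKM in the Indocin library and 15.1 FPKM in the DMSO library (0.04). ZBTB16, also called PLZF, is a transcriptional repressor with a BTB domain and stood at 9.14 FPKM in the Indocin library and 8.01 FPKM in the DMSO library (0.17). In FPKM, SGK1 was 0.910% higher with Indocin, KLF9 3.00% and ZBTB16 14.1%. With a common FPKM sum the log2 ratio of SGK1 was 0.09 and that of KLF9 0.12.

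**Figure D2:**
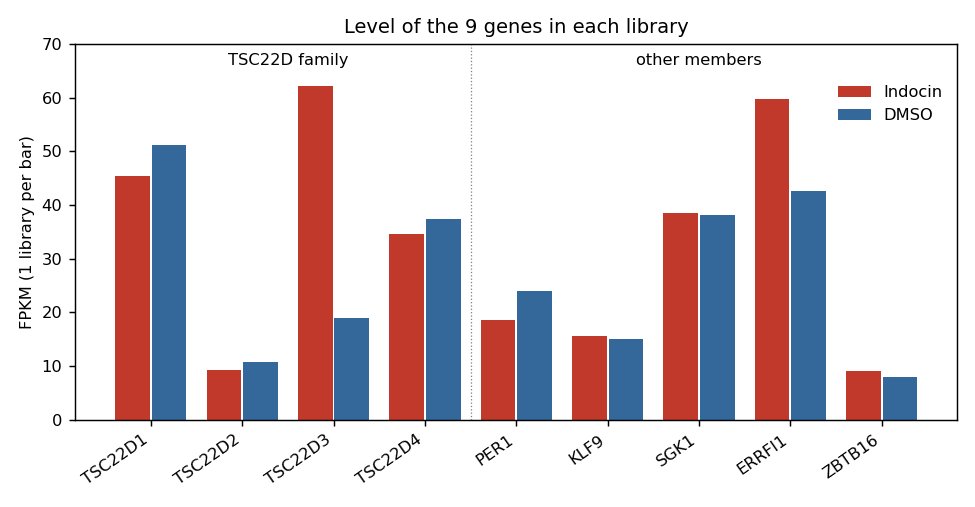
Bars give the FPKM of each of the 9 genes in the Indocin library (left bar of each pair) and in the DMSO library (right bar), with the TSC22D family left of the dotted line. TSC22D3 stands at 62.2 FPKM with Indocin and 18.9 FPKM with DMSO and ERRFI1 at 59.7 FPKM with Indocin and 42.6 FPKM with DMSO, while the bars of SGK1 and KLF9 are nearly level.

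The order of the 9 levels was otherwise much alike in both libraries. TSC22D3 was the highest in the Indocin library and held place 6 of 9 in the DMSO library. ERRFI1 held place 2 in both, KLF9 place 7, TSC22D2 place 8 and ZBTB16 place 9. TSC22D1 held place 3 in the Indocin library and place 1 in the DMSO library, and SGK1, TSC22D4 and PER1 each stood 1 place lower in the Indocin library than in the DMSO library. FPKM is per length, so levels can be set against each other, but without replicates no spread is known, so whether close neighbours such as SGK1 and TSC22D4, or TSC22D2 and ZBTB16, differ beyond it was not tested. All 9 members passed the minimum mean, and ZBTB16, with a mean of 8.57 FPKM, was the lowest of them.

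In all, 1 of the 9 members, TSC22D3, lay 1.5-fold or more above its DMSO level, as did 2.19% of all tested genes. None of the 9 was at least 1.5-fold lower, as 0.744% of tested genes were. TSC22D3 was also the single member past 2-fold, as 0.752% of tested genes were on the higher side, and 0.0418% were past it on the lower side. Since the members were picked with these ratios known, nothing is read from the counts. Over all tested genes 262 were at least 1.5-fold higher and 89 as much lower (321 and 58 with a common upper quartile), and the median log2 ratio was -0.02. The absolute read depth is unknown because FPKM are not counts, so no counting interval could be given.

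**Figure D3:**
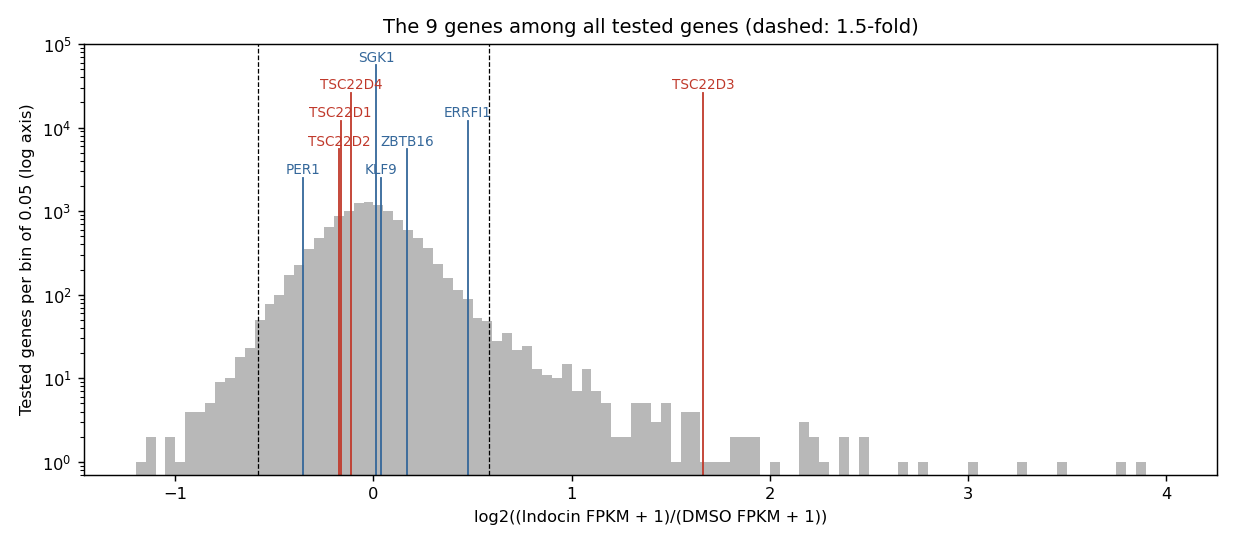
Grey bars count the 11964 tested genes by log2((Indocin FPKM + 1)/(DMSO FPKM + 1)) on a logarithmic y axis, vertical lines mark the 9 members (red for the TSC22D family, blue for the others; line height has no meaning) and dashed lines mark 1.5-fold. TSC22D3 lies at 1.67, right of the upper dashed line, and the other 8 lie between -0.36 and 0.48.

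The genes with a ratio nearest to that of TSC22D3, among 1899 tested genes with a mean within 1.5-fold of its own, were C2orf54, STC2 and PSPH. C2orf54 stood at 62.0 FPKM in the Indocin library and 19.6 FPKM in the DMSO library (log2 ratio 1.61). STC2, a secreted glycoprotein hormone, had a ratio of 1.60, and PSPH, the last enzyme of serine synthesis, a ratio of 1.48. For ERRFI1 the nearest of 1577 genes were the fatty acid desaturase FADS1 (0.48), the ubiquitin ligase TRIM11 (0.48) and the kinase MAPK6 (0.46). Likeness here is the distance between log2 ratios over 2 libraries, so it says only that the genes differed by a similar factor.

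The receptor that gives these genes their name was close to 0. NR3C1 was listed at 0.117 FPKM in the Indocin library and 0.0137 FPKM in the DMSO library, and NR3C2, the mineralocorticoid receptor, at 0.780 FPKM in the Indocin library and 0.661 FPKM in the DMSO library. Both were under the minimum mean, so no fold is given for them. HSD11B2, which inactivates cortisol, stood at 21.0 FPKM in the Indocin library and 24.0 FPKM in the DMSO library (log2 ratio -0.18), while HSD11B1, which regenerates cortisol, was listed at 0 in both.

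Of the 15 genes of the glucocorticoid receptor pathway, 12 were measured, that is, reached the minimum mean. None of these was at least 1.5-fold higher, as 2.19% of all tested genes were. None was as much lower, as 0.744% were, and the median log2 ratio of the 12 was -0.18. The 4 largest ratios in size belonged to FKBP5 (172.1 FPKM in the Indocin library, 225.3 FPKM in the DMSO library, -0.39), FKBP4 (-0.37), STIP1 (-0.36) and the coactivator NCOA2 (0.33). FKBP5, FKBP4 and STIP1 are cochaperones of the receptor's HSP90 complex, and FKBP5 is also a glucocorticoid- and androgen-induced gene.

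Other genes known to be induced by glucocorticoids did not share one direction. Of 30 measured genes, with Indocin 3 were higher by 1.5-fold or more and 3 were lower by as much, and 13 had ratios above 0 and 17 below. Over all tested genes 2.19% were as much higher and 0.744% as much lower. Those higher were DDIT4, an inhibitor of mTORC1 (557.9 FPKM in the Indocin library, 80.7 FPKM in the DMSO library, 2.77), the transcription factor CEBPB (102.7 FPKM in the Indocin library, 36.4 FPKM in the DMSO library, 1.47) and LPIN1, a phosphatidate phosphatase (0.95). DDIT4 and CEBPB are also known as genes of the integrated stress response, the pathway of ATF4.

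Those lower were the growth factor binding protein IGFBP1 (0.749 FPKM in the Indocin library, 1.77 FPKM in the DMSO library, -0.66), the ADP-ribosyltransferase TIPARP (-0.64) and the small GTPase RHOB (109.2 FPKM in the Indocin library, 170.7 FPKM in the DMSO library, -0.64). IGFBP1 alone stayed past 1.5-fold on the lower side when the libraries were given a common upper quartile or a common sum. RHOB alone did so with a pseudocount of 5 FPKM. IGFBP1 lies near the minimum mean of 1 FPKM, and with a minimum of 5 FPKM it dropped out and 2 genes were lower. The list median was -0.05, against -0.02 for all tested genes. Among the rest of the list, ratios ran from -0.49 for CRISPLD2 to 0.35 for TXNIP. Some much used glucocorticoid-induced genes were nearly level. The phosphatase DUSP1 stood at 10.8 FPKM in the Indocin library and 10.4 FPKM in the DMSO library, and the metallothionein MT2A at 260.7 FPKM in the Indocin library and 261.2 FPKM in the DMSO library.

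**Figure D4:**
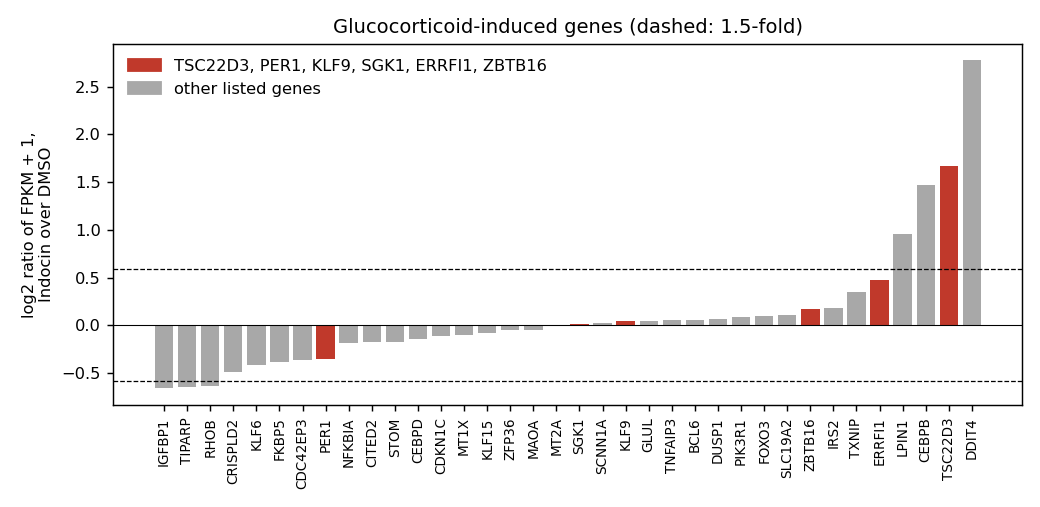
Bars give the log2 ratio of FPKM + 1, Indocin over DMSO, of TSC22D3, PER1, KLF9, SGK1, ERRFI1 and ZBTB16 (red) and of the 30 other measured glucocorticoid-induced genes (grey), sorted by value, with 1.5-fold dashed. DDIT4, TSC22D3, CEBPB and LPIN1 lie above the upper dashed line, IGFBP1, TIPARP and RHOB below the lower one, and SGK1 and KLF9 are near 0.

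TSC22D proteins bind the pseudokinase NRBP1 and act with the WNK kinases, which sense cell volume. NRBP1 stood at 46.8 FPKM in the Indocin library and 48.1 FPKM in the DMSO library (log2 ratio -0.04), and WNK1 at 34.9 FPKM in the Indocin library and 34.7 FPKM in the DMSO library (0.01). Of 10 measured genes of this group none was past 1.5-fold, against 2.19% of all tested genes higher and 0.744% lower. The furthest of the 10 were WNK3 (-0.30), WNK2 (-0.29), the kinase STK39 (0.22) and the kinase scaffold CAB39 (0.12). The median was -0.06.

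The clock genes around PER1 lay on both sides of 0. PER3 stood at 9.29 FPKM in the Indocin library and 14.4 FPKM in the DMSO library (log2 ratio -0.58, just short of 1.5-fold, and past it at -0.63 with a pseudocount of 0.1 FPKM). PER2 stood at 12.6 FPKM in the Indocin library and 8.87 FPKM in the DMSO library (0.47). Thus 2 of the 3 period genes, PER1 and PER3, were lower with Indocin and PER2 was higher. ARNTL, which encodes the clock activator BMAL1, stood at 5.15 FPKM in the Indocin library and 3.31 FPKM in the DMSO library (0.51, and 0.62 with a pseudocount of 0.1 FPKM). NFIL3, a repressor of clock output genes, stood at 9.05 FPKM in the Indocin library and 4.96 FPKM in the DMSO library (0.75). It was the only 1 of 21 measured clock genes at least 1.5-fold higher, and none was as much lower. Over all tested genes 2.19% were as much higher and 0.744% as much lower, so nothing is read from this count. With a pseudocount of 5 FPKM none of the clock genes was past 1.5-fold. The median was -0.03.

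Relatives and partners of the other members had ratios of either sign. Among 11 measured Kruppel-like factors beside KLF9 none was past 1.5-fold, against 2.19% of all tested genes higher and 0.744% lower. The furthest were KLF16 (-0.49), KLF6 (-0.41), KLF4 (0.30) and KLF3 (0.25), and the median was 0.01. Among 14 measured relatives, activators and substrates of SGK1 none was past 1.5-fold either, against the same shares, so nothing is read from these counts. The furthest were NDRG1 (-0.40), a phosphorylation target of SGK1, then AKT1 (-0.24), the mTOR subunit MLST8 (0.23) and the ubiquitin ligase NEDD4L (-0.20). The kinases SGK2 and SGK3 had ratios of -0.17 and -0.12.

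Of the receptors that ERRFI1 inhibits, ERBB2 stood at 54.8 FPKM in the Indocin library and 48.1 FPKM in the DMSO library (log2 ratio 0.18), ERBB3 had a ratio of 0.17 and EGFR of -0.07, and the ligand TGFA had a ratio of -0.04. Of 12 receptors and ligands 5 were measured and none was past 1.5-fold, against 2.19% of all tested genes higher and 0.744% lower. Among 12 measured relatives of ZBTB16 with a BTB domain and zinc fingers none was past 1.5-fold, with ZBTB38 (0.34), ZBTB7A (-0.22), ZBTB17 (-0.18) and ZBTB40 (-0.17) the furthest.

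FOXO transcription factors also induce TSC22D3. FOXO3 stood at 22.2 FPKM in the Indocin library and 20.6 FPKM in the DMSO library (log2 ratio 0.10), and FOXO1 was listed at 0.817 FPKM in the Indocin library and 0.727 FPKM in the DMSO library. Of 14 measured FOXO targets 11 had ratios above 0 and 3 below, with a median of 0.21, against -0.02 for all tested genes. The list overlaps that of the other glucocorticoid-induced genes, with IRS2, TXNIP, CITED2, KLF6 and BCL6 in both. GADD45A, a growth arrest gene (18.0 FPKM in the Indocin library, 6.88 FPKM in the DMSO library, 1.27), and SESN3, a sestrin (0.62), were the 2 of 14 at least 1.5-fold higher, as 2.19% of all tested genes were, and none was as much lower. With a pseudocount of 5 FPKM, GADD45A alone was past it. CDKN1A (0.50) and SESN1 (0.47) came next, and GADD45A, CDKN1A and SESN1 are known p53 targets too.

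**Figure D5:**
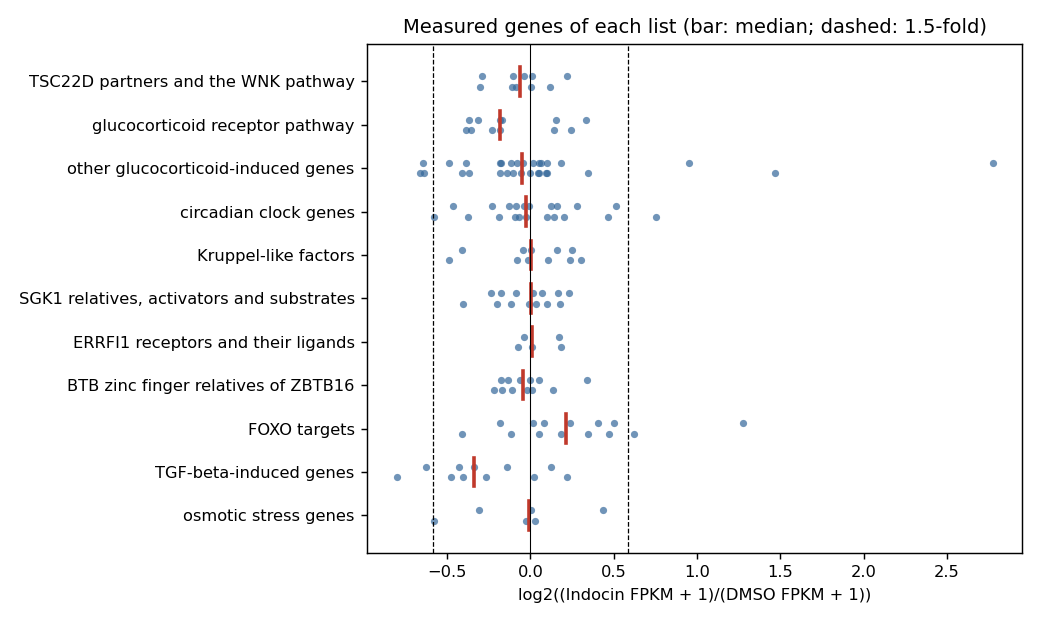
Each dot is 1 measured gene of the list named on the y axis, placed by its log2((Indocin FPKM + 1)/(DMSO FPKM + 1)) on the x axis (the small vertical offset only separates dots), red bars are list medians and dashed lines mark 1.5-fold. List medians run from -0.34 for TGF-beta-induced genes to 0.21 for FOXO targets. The dot furthest to the right is DDIT4 (2.77), of the other glucocorticoid-induced genes, whose list median is -0.05.

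Start-site regions were searched for the letters of known elements, from 250 bases before to 50 bases after each RefSeq start in GRCh38.p14. Of the 9 members 7 had such regions, 16 in all. The exact letters of a full glucocorticoid response element, AGAACA and TGTTCT set 3 bases apart, were in none of them. They were in 1 of the 34943 regions of all genes (0.00286%), so their absence from the 16 says nothing about the members. The half-site TGTTCT, searched on both strands, was in 2 of the 16, 1 of TSC22D1 and 1 of SGK1, and in 14.8% of all regions. The FOXO letters TGTTTAC, on both strands, were in 1 of the 16 and in 3.42% of all, the E-box CACGTG in 2, of TSC22D1 and PER1, and in 7.23% of all. The ATF4 and CEBP letters TGATGNAA, on both strands, were in none and in 3.62% of all, and the cyclic AMP element TGACGTCA in none and in 1.84% of all. A match is only a run of letters, and a region without one may still bind the factor or be controlled from outside it.

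The region with the FOXO letters is shown because it belongs to TSC22D3. An SGK1 region with the half-site on its minus strand is shown because SGK1 was nearly level between the libraries. Both regions were picked with these values known, and whether either match has a role was not tested. Capitals mark the matches, which begin at position -147 from the start site in TSC22D3 and at position 6 in SGK1, where position 1 is the start site. The regions lie at chrX:107717013-107717312 and chr6:134177812-134178111, both on the minus strand, and are written 5′ to 3′.
TSC22D3: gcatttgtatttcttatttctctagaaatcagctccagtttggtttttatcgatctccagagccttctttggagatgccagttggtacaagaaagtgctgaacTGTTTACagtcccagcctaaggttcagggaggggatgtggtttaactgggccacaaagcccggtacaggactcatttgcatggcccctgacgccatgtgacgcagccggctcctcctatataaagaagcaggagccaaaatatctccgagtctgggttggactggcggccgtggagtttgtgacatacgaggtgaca
SGK1: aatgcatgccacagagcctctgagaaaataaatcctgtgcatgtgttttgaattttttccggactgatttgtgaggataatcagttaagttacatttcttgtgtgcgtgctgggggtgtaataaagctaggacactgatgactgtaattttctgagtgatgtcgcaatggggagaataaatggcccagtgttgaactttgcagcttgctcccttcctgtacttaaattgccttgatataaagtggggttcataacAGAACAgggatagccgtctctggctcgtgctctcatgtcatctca
TSC22D3 has 4 start regions and SGK1 has 3 in this table, and the deposited FPKM are 1 value per gene symbol, so the start sites in use cannot be told apart here.

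The nearest gene with a listed value on each side of a member was read from the RefSeq order, and 8 of these 18 flanking genes were measured. Short RNA genes and genes without a listed symbol were passed over, so a flanking gene need not be the immediate neighbour. For TSC22D3 the flanking genes were PRPS1 and MID2. PRPS1, a nucleotide synthesis enzyme, stood at 76.0 FPKM in the Indocin library and 90.4 FPKM in the DMSO library (-0.25). MID2, a ubiquitin ligase, had a ratio of 0.17. HES7, a transcription repressor flanking PER1, stood at 2.45 FPKM in the Indocin library and 5.52 FPKM in the DMSO library (-0.92). It was the 1 of 8 measured flanking genes past 1.5-fold, and 0.744% of all tested genes were at least 1.5-fold lower. VAMP2, on the other side of PER1, had a ratio of 0.24. TSC22D1-AS1, which overlaps TSC22D1 in the annotation, was listed at 0.404 FPKM in the Indocin library and 0.335 FPKM in the DMSO library, and whether reads were counted by strand is not stated.

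Markers of the prostate epithelium, the source of the line, were present in both libraries. All 10 listed were measured, from 5.07 to 362.3 FPKM in the Indocin library and from 5.38 to 412.7 FPKM in the DMSO library. None was past 1.5-fold, against 2.19% of all tested genes higher and 0.744% lower. Of the 10 markers 3 had log2 ratios above 0 and 7 below, and the median was -0.24, against -0.02 for all tested genes. The lowest were SLC45A3 (-0.51), the homeobox gene HOXB13 (-0.45) and the kallikrein KLK2 (-0.45), KLK3 had a ratio of -0.30, and those above 0 were FOLH1 (0.18), STEAP2 (0.09) and TMPRSS2 (0.05). Summed over lists, 5 basal epithelium markers came to 1.12 FPKM in the Indocin library and 1.29 FPKM in the DMSO library, and 4 endothelial markers to 0.658 FPKM in the Indocin library and 0.401 FPKM in the DMSO library. The 8 fibroblast and muscle markers came to 5.77 FPKM in the Indocin library and 5.42 FPKM in the DMSO library, and the 6 leukocyte markers to 6.38 FPKM in the Indocin library and 7.28 FPKM in the DMSO library. COL1A1 and CD68 made up most of the last 2 sums, while COL1A2, COL3A1, DCN, PECAM1 and CD3E were listed at 0 in both libraries. Of 7 neuroendocrine markers ENO2 alone was measured, at 31.7 FPKM in the Indocin library and 33.1 FPKM in the DMSO library.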

How the data were processed

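RNA-seq libraries (KAPA stranded mRNA kit, per the labels' protocols) gave 1 table per library. Each deposited table gives 1 FPKM value and 1 status for every gene symbol, per the file headers. Builds GRCh37 and hg19 and the tools Cuffnorm, StringTie, Cufflinks, TopHat and bcl2fastq are named in the submitters' processing notes. Roles, versions, annotation and strand setting are not stated there. Read depth is unknown. Deposited FPKM summed to 583096 in the Indocin library and 617510 in the DMSO library.

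Ratios were log2((Indocin FPKM + 1)/(DMSO FPKM + 1)), which understates the fold of low genes. Genes entered with a mean of at least 1 FPKM, and 2045 symbols of short RNA genes were left out. A gene was counted past 1.5-fold on this scale. With 1 library per group no test was run. The 9 members and the 11 pathway or family lists were chosen with earlier results of these data known. Genes named from a list were those past 1.5-fold and up to 4 with the largest ratios, and others were named for their known roles after their values were seen. An older and a newer symbol of 1 gene were counted once, and some genes are not reported here. Sequences came from RefSeq (GRCh38.p14) and GENCODE 29 (GRCh38), which differ from the build of the files, so no coordinate was joined to a value. Python 3.11.15, numpy 2.4.6 and pandas 2.3.3 were used, and the ratio code was tested on simulated data. Alternatives were pseudocounts of 0.1 and 5 FPKM, a common upper quartile, a common sum, median centring, a 2-fold threshold, and no minimum or a minimum of 5 FPKM.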

Additional observations from a re-analysis of the deposited data

How the results depend on the processing

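All 9 members kept their sign and their side of 1.5-fold under pseudocounts of 0.1 and 5 FPKM, a common upper quartile, a common sum and median centring. TSC22D3 ranged from 1.49 to 1.74 over these settings, ERRFI1 from 0.44 to 0.56 and PER1 from -0.37 to -0.28. TSC22D3 was also past 2-fold, and 0 members lower at 2-fold follows from 0 lower at 1.5-fold. The other minimum means could not change the count of members. The lowest member mean was 8.57 FPKM, of ZBTB16, and the minimum does not alter a ratio. Some list counts moved, and the cause was not tested. With a pseudocount of 5 FPKM, 1 FOXO target and 0 clock genes were higher, and 1 TGF-beta-induced gene and 1 other glucocorticoid-induced gene were lower. With a pseudocount of 0.1 FPKM, 2 clock genes were higher, and 1 clock gene and 1 osmotic stress gene were lower. With the same upper quartile, and likewise with the same sum, 1 TGF-beta-induced gene and 1 other glucocorticoid-induced gene were lower. Over all genes, 420 were higher and 188 lower with a pseudocount of 0.1 FPKM, 126 and 36 with 5 FPKM, 323 and 52 with the same sum, and 90 and 5 at 2-fold. No paired analysis was possible because each group has 1 library. Without replicates or read counts, the precision of a single FPKM value is unknown.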

Other observations

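TSC22D1 was first described as a gene induced by transforming growth factor beta. Of 11 measured TGF-beta-induced genes 8 had log2 ratios below 0 and 3 above, with a median of -0.34, against -0.02 for all tested genes. BAMBI, a pseudoreceptor that dampens the pathway, stood at 58.5 FPKM in the Indocin library and 102.5 FPKM in the DMSO library (-0.80). SMAD6, an inhibitory SMAD, stood at 10.9 FPKM in the Indocin library and 17.4 FPKM in the DMSO library (-0.63). These were the 2 of 11 at least 1.5-fold lower, as 0.744% of all tested genes were, and none was as much higher. ID3 (-0.48) and ID1 (-0.43), which bone morphogenetic proteins also induce together with SMAD6, came next. BAMBI alone was past 1.5-fold with a pseudocount of 5 FPKM, a common upper quartile or a common sum.

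TSC22D2 is known to be induced by hypertonic stress in mouse kidney cells. Of 6 measured osmotic stress genes none was past 1.5-fold, against 2.19% of all tested genes higher and 0.744% lower, so nothing is read from this count. The median log2 ratio was -0.01. The taurine transporter SLC6A6 stood at 4.61 FPKM in the Indocin library and 7.37 FPKM in the DMSO library (-0.58, and -0.67 with a pseudocount of 0.1 FPKM). The amino acid transporter SLC38A2 stood at 115.6 FPKM in the Indocin library and 85.2 FPKM in the DMSO library (0.43). NFAT5, the transcription factor of this response, stood at 4.76 FPKM in the Indocin library and 4.63 FPKM in the DMSO library (0.03).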
